A study of Homo sapiens with 16 samples.

Results

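Long noncoding RNAs known for nuclear organisation or for colorectal cancer were followed across HT55 and SW948, a pair of established human colorectal cancer cell lines. The set was LINC00941, MALAT1, NEAT1, KCNQ1OT1, PVT1, CCAT1, TUG1 and OIP5-AS1. Of these 8 genes, 6 could be matched by symbol to an Ensembl identifier among the 54127 in the count files, where 8905 identifiers are annotated as long noncoding RNAs (lncRNAs). KCNQ1OT1 and CCAT1 were not matched and are given no value. The 8 genes were picked for their known biology with earlier results of these data at hand, and LINC00941 was selected on its SW948 log2 fold change, one of the steepest falls in those results. Its SW948 values, and every contrast that contains them, are therefore given as a description with no test.

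Each line was grown in adherent culture with serum and received itraconazole, an azole antifungal, at 5 µM or its solvent DMSO. RNA was taken at day 6. There were 4 libraries in each of the 4 groups, HT55 DMSO, HT55 itraconazole, SW948 DMSO and SW948 itraconazole, and no genetic change separates treated from control cells of a line. Gene counts per library ran from 8269406 to 11110814. As a background for the marker counts, 27.5% of all tested HT55 genes were called higher and 26.5% lower (edgeR adjusted p under 0.05). For SW948 the background was 38.9% higher and 41.3% lower. Plain library totals called 2279 of 12133 HT55 genes higher and 4710 lower. With SW948 they called 3145 of 12505 higher and 6832 lower. Of 8 epithelial markers 4 rose, 1 fell and 3 did not pass in HT55, while 5 rose and 3 fell in SW948 (on plain totals 4 and 2 in HT55, 4 and 3 in SW948). They were present in all groups, with EPCAM between 1343 and 2235 CPM (counts per 1000000 gene counts after TMM scaling, a normalisation for library composition) as group means. Of 7 matched markers of fibroblast, muscle, endothelial and immune cells, CD3E had no count in any library and PTPRC had 1 count in all. COL1A2 had 2 counts in all, VWF had at most 5 counts in a library and the group means of VIM were at most 0.099 CPM. COL1A1 rose in SW948 from 3.16 ± 0.81 to 10.1 ± 1.03 CPM (SD, n = 4 each, edgeR adjusted p = 9.01e-07), and ACTA2 was tested in HT55 alone and did not pass (edgeR adjusted p = 0.0908). The part of these 2 genes in the results was not tested. These are bulk samples, so fewer cells of a type and less RNA per cell cannot be told apart.

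Long noncoding RNAs are transcribed and often spliced like messenger RNAs but act mainly as RNA. NEAT1 is the scaffold of paraspeckles, nuclear bodies built with the proteins NONO, SFPQ and others. MALAT1 is an abundant RNA of nuclear speckles, where splicing factors gather. KCNQ1OT1 silences neighbouring genes in an imprinted domain, and PVT1 and CCAT1 lie on either side of MYC in a region that is often gained in colorectal cancer. TUG1 takes part in chromatin repression, and OIP5-AS1, also called cyrano, is a conserved RNA that drives the decay of the microRNA miR-7. LINC00941 has been linked to invasion in several carcinomas.

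On GRCh37 with the GENCODE v44 models, MALAT1 (ENSG00000251562, chromosome 11, 65265111 to 65275544) and NEAT1 (ENSG00000245532, chromosome 11, 65190245 to 65213011) lie side by side on the plus strand. Each has 1 block of exon, of 10.4 kb and 22.8 kb. LINC00941 (ENSG00000235884, chromosome 12, 30908101 to 30955536) has 1.355 kb of exon in 5 blocks. PVT1 (ENSG00000249859, chromosome 8, 128806772 to 129199347) has 25.4 kb of exon in 59 blocks over a span of 392.6 kb. TUG1 (ENSG00000253352, chromosome 22, 31365231 to 31375381) has 1 block of 10.2 kb, and OIP5-AS1 (ENSG00000247556, chromosome 15, 41576156 to 41614590) has 22.4 kb in 16 blocks. In that release TUG1 is typed as protein coding, so it is not counted among the lncRNAs.

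The strand setting of the read counting is not given in the sources used here, so reads of a gene and of a gene on the opposite strand cannot be told apart. This touches MALAT1, of whose exon bases 77.8% also lie in the antisense gene TALAM1, which the files do not list, and OIP5-AS1, which shares 3.39% of its exon bases with OIP5. Of the exon bases of TUG1, 5.38% lie in ENSG00000269987 and 2.60% in ENSG00000269972, both on the opposite strand and not listed in the files. LINC00941 shares 7.75% of its exon bases with ENSG00000246331, a gene of the same strand that is also in the files, and 92.3% with ENSG00000285517, another gene of that strand that the files do not list. Counts are per gene, so the short and long forms of NEAT1 are summed. Whether the libraries were selected for poly(A) tails is not given either. How fully MALAT1 and each form of NEAT1 were captured is therefore not known, and their levels beside other genes carry this limit.

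Start-site sequences are shown for the 4 matched genes with an entry in the RefSeq promoter table (GRCh38.p14). A part of these sequences in the response to the drug was not tested. Each run holds 250 bases before and 50 bases after the start annotated by RefSeq. All runs are written 5′ to 3′ on the plus strand, which is the strand of all 4 genes. These starts were not compared with those of the GENCODE v44 models on GRCh37 and may differ from them. Capitals mark the E-box letters CACGTG, the core bound by MYC and related factors. The windows are chr12:30795431-30795730 for LINC00941, chr11:65497488-65497787 for MALAT1, chr22:30969015-30969314 for TUG1 and chr15:41283740-41284039 for OIP5-AS1.
LINC00941: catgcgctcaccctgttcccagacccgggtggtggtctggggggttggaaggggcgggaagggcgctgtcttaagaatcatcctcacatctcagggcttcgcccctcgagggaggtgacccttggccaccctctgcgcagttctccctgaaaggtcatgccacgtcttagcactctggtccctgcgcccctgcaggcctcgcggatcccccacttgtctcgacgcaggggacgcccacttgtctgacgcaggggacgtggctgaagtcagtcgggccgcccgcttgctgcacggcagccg
MALAT1: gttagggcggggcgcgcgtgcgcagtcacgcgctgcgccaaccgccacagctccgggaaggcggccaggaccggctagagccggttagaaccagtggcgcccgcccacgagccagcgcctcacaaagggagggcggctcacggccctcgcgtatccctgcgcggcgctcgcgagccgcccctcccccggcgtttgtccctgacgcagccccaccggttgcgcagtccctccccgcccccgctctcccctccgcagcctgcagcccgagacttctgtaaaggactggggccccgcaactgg
TUG1: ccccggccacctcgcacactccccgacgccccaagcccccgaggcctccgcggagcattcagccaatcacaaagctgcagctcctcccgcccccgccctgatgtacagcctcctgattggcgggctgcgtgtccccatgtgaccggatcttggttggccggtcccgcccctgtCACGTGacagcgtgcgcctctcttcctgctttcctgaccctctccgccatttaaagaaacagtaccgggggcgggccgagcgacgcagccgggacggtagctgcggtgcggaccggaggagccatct
OIP5-AS1: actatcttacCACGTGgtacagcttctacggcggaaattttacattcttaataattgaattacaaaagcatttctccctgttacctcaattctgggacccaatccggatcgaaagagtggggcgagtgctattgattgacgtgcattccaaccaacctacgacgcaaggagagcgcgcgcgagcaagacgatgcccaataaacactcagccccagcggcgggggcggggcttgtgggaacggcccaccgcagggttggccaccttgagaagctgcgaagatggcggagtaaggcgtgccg

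The TUG1 window held the E-box letters once, 77 bases before the start, and the OIP5-AS1 window held them once, 240 bases before it. The LINC00941 and MALAT1 windows held none. These letters, which read the same on both strands, occur in 7.26% of the 35116 promoters of the table. The TCF/LEF core CTTTGAT, searched on both strands and not overlapping the E-box letters, occurs in 2.62% of them and was in none of the 4 windows. GC content was 66.0% for LINC00941, 73.7% for MALAT1, 67.7% for TUG1 and 54.3% for OIP5-AS1, against a median of 58.7% over all promoters. A match of letters is a description and no match says nothing of the factor.

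Levels between genes were set side by side as CPM per kb of exon. The exon lengths are those of GENCODE v44 and may differ from the gene models used in the counting, which are not given here. The order between genes depends on these lengths, while the comparison of groups within a gene does not. In HT55 DMSO, TUG1 was highest at 16.4 ± 0.89 CPM per kb (SD, n = 4, as for the values that follow). MALAT1 at 9.75 ± 3.07 and OIP5-AS1 at 8.70 ± 0.39 CPM per kb came next and did not differ beyond their spread. NEAT1 at 0.943 ± 0.153, PVT1 at 0.243 ± 0.0188 and LINC00941 at 0.0989 ± 0.0731 CPM per kb followed. The order was another one in SW948 DMSO, where LINC00941 led at 23.7 ± 0.71 CPM per kb. TUG1 at 15.8 ± 1.36, MALAT1 at 11.2 ± 0.58, NEAT1 at 5.21 ± 1.06, OIP5-AS1 at 1.90 ± 0.17 and PVT1 at 0.517 ± 0.0385 CPM per kb came after it.

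With itraconazole, MALAT1 stood highest in both lines. In HT55 itraconazole it had 14.6 ± 4.60 CPM per kb, which overlapped with TUG1 at 13.5 ± 1.04, and OIP5-AS1 followed at 8.76 ± 0.65, NEAT1 at 0.958 ± 0.117 and PVT1 at 0.325 ± 0.085 CPM per kb. In SW948 itraconazole MALAT1 had 22.8 ± 4.65, NEAT1 13.8 ± 1.5 and TUG1 8.42 ± 1.25 CPM per kb. PVT1 at 1.75 ± 0.38, LINC00941 at 1.40 ± 0.16 and OIP5-AS1 at 1.37 ± 0.20 CPM per kb were last and did not differ beyond their spread. LINC00941 thus moved from the top of the order in SW948 to the level of the lowest members.

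**Figure D1:**
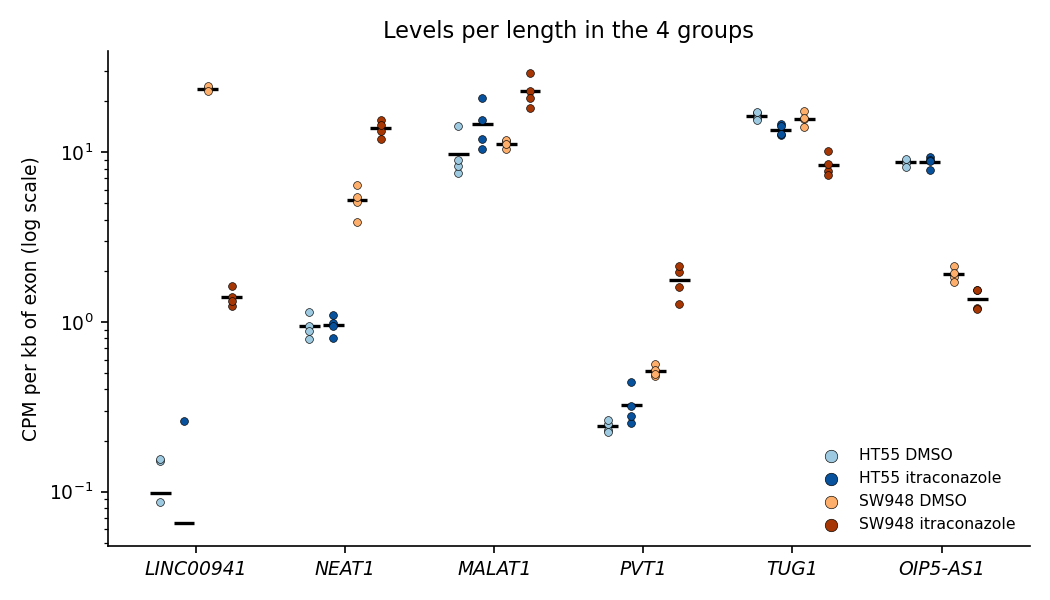
Level of each matched lncRNA in CPM per kb of exon (log axis) in the 4 groups. Points are libraries above 0 (n = 4 per group, so libraries at 0 for LINC00941 in HT55 are not drawn) and bars are means of all 4. LINC00941 spans the widest range, from 0.0653 CPM per kb in HT55 itraconazole to 23.7 in SW948 DMSO.

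The within-line comparisons asked which of these RNAs changed with itraconazole. In SW948 all 5 tested members passed an adjusted p of 0.05, NEAT1, MALAT1 and PVT1 upwards and TUG1 and OIP5-AS1 downwards, and in none did treated and control libraries overlap in CPM, as was the case for 74.7% of all tested genes in SW948. The background of calls was as broad, since 10030 of 12505 tested genes (80.2%) passed in SW948, 38.9% of the tested genes higher and 41.3% lower. In HT55 only TUG1 passed among the 5 tested members. There 54.0% of 12133 tested genes passed, 27.5% higher and 26.5% lower, and treated and control libraries did not overlap for 49.4%. Adjusted p-values are from edgeR's quasi-likelihood test over all tested genes of the line, with Benjamini-Hochberg adjustment.

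**Figure D2:**
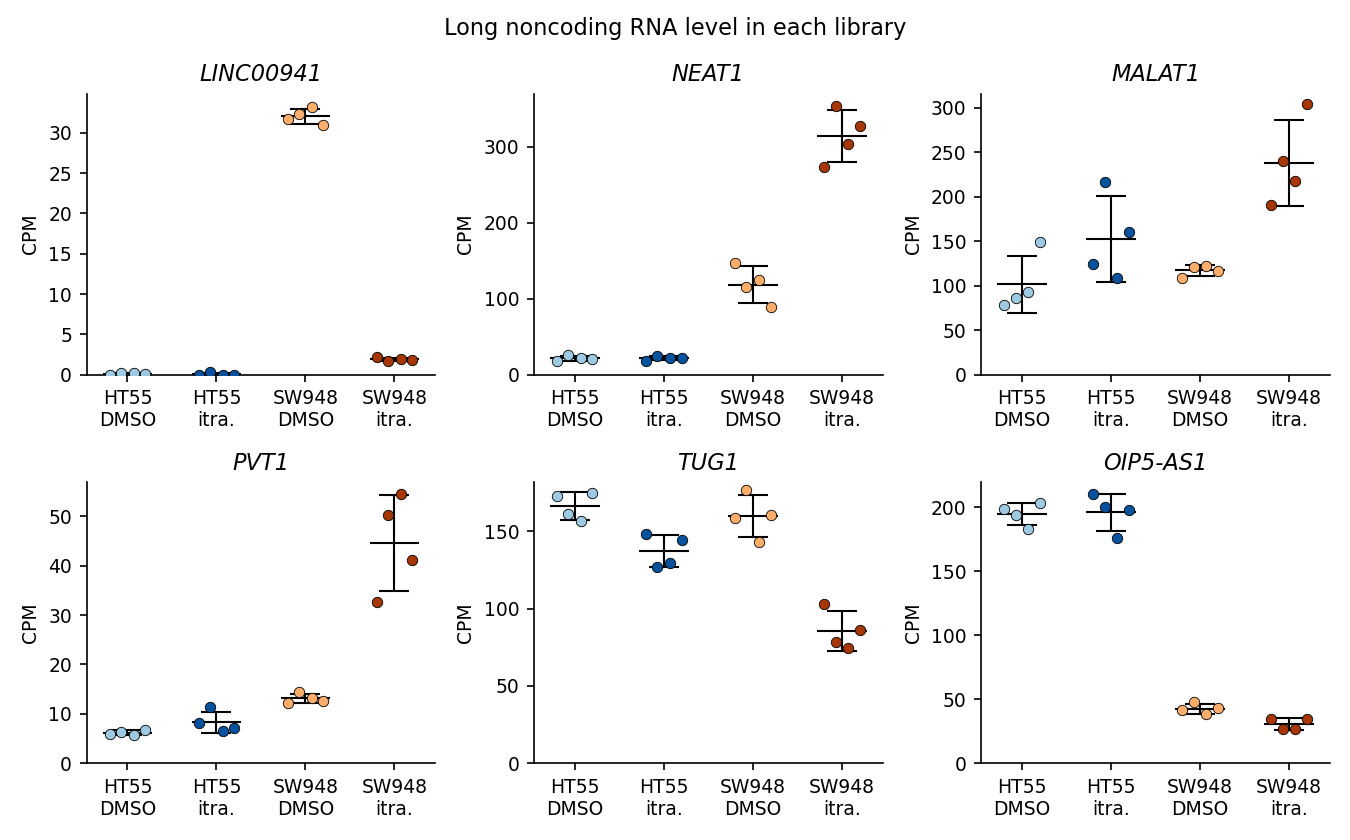
CPM of the 6 matched lncRNAs in each of the 16 libraries, with a linear axis from 0 for each gene. Points are libraries (itra., itraconazole), and bars are the mean ± SD of 4, clipped at 0. In SW948 treated and control libraries are apart for the 5 tested genes (74.7% of all tested genes) and for LINC00941, which was chosen on its fall there, and in HT55 they are apart for TUG1 (49.4% of all tested genes).

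NEAT1 rose in SW948 and not detectably in HT55. The SW948 DMSO libraries had 147, 115, 124 and 88.5 CPM and the SW948 itraconazole libraries 274, 353, 303 and 328 CPM. Every treated library exceeded every control, and the group mean went from 119 ± 24.1 to 314 ± 34.1 CPM. The log2 fold change was 1.37 ± 0.13 (SE; 2.59-fold, edgeR adjusted p = 1.90e-07). In HT55 the controls had 18.0, 26.2, 21.4 and 20.3 CPM and the treated libraries 18.4, 24.9, 22.3 and 21.6 CPM. The HT55 groups overlapped throughout (log2 fold change 0.018 ± 0.134 SE, edgeR adjusted p = 0.918), and the sign was negative when plain library totals replaced TMM scaling.

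MALAT1, the neighbour of NEAT1, rose 1.98-fold in SW948. Its SW948 DMSO libraries held 109, 121, 122 and 116 CPM and its SW948 itraconazole libraries 190, 240, 217 and 304 CPM. The controls were tight and every treated library lay above them (log2 fold change 0.99 ± 0.11 SE, edgeR adjusted p = 1.77e-06). In HT55 the DMSO libraries had 78.6, 86.1, 93.3 and 149 CPM and the itraconazole libraries 124, 217, 108 and 160 CPM. DMSO replicate 4 was higher than 2 of the treated libraries, and the change did not pass (log2 fold change 0.58 ± 0.24 SE, edgeR adjusted p = 0.0588).

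That HT55 call turned on single libraries. Without HT55 DMSO replicate 4 the log2 fold change of MALAT1 was 0.83 (edgeR adjusted p = 0.0107), and without HT55 itraconazole replicate 3 it was 0.73 (edgeR adjusted p = 0.0063). Without HT55 itraconazole replicate 2, the highest of its group, it was 0.36 (edgeR adjusted p = 0.157). With all 8 libraries it passed in the DESeq2 Wald test (log2 fold change 0.59, adjusted p = 0.0276), with no filter on low counts (edgeR adjusted p = 0.00595) and in 1 fit on all 16 libraries (edgeR adjusted p = 0.0184).

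Counts of NEAT1 per count of MALAT1 do not depend on library scaling. In HT55 this ratio was 0.225 ± 0.069 (SD, n = 4) with DMSO and 0.151 ± 0.039 with itraconazole. In SW948 it was 1.02 ± 0.24 with DMSO and 1.35 ± 0.18 with itraconazole. The ratios of each line overlapped between treatments, ranging from 0.115 to 0.305 in HT55 and from 0.759 to 1.47 in SW948. The ratio of MALAT1 to TUG1 counts ran from 0.685 to 0.854 in SW948 DMSO and from 1.85 to 3.53 in SW948 itraconazole, with no overlap. In HT55 it ran from 0.454 to 0.851 with DMSO and from 0.837 to 1.70 with itraconazole, with overlap.

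LINC00941 fell in SW948 and was barely counted in HT55. Its SW948 DMSO libraries had 396, 342, 383 and 402 counts, or 31.7, 32.3, 33.2 and 30.9 CPM. The SW948 itraconazole libraries had 22, 13, 15 and 16 counts, or 2.20, 1.68, 1.91 and 1.81 CPM. The mean went from 32.1 ± 0.96 to 1.90 ± 0.22 CPM, a log2 fold change of -4.09 ± 0.12 (SE), or 17.0-fold lower. It was chosen on that value, by which it ranked 78 from the bottom among the 12505 genes tested in SW948. Among the 450 lncRNAs tested there it ranked 17, and both ranks follow from the choice. In HT55 the 4 DMSO libraries had 0, 2, 2 and 1 counts and the 4 itraconazole libraries 0, 3, 0 and 0. With 5 against 3 counts in HT55 no fold change was given, and a difference was not detectable at this depth.

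LINC00941 summed to 1523 counts over the SW948 DMSO libraries and to 5 over the HT55 DMSO libraries, which is 236-fold more per scaled library in SW948 and is given as a description. PVT1, the member treated next, lies 51.6 kb beyond MYC.

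PVT1 rose 3.31-fold in SW948. Its SW948 DMSO libraries had 12.3, 14.5, 13.3 and 12.5 CPM and its SW948 itraconazole libraries 32.6, 50.3, 54.5 and 41.1 CPM. The lowest treated library was above the highest control (log2 fold change 1.73 ± 0.14 SE, edgeR adjusted p = 7.48e-08). In HT55 its controls had 5.84, 6.37, 5.72 and 6.75 CPM and the treated libraries 8.19, 11.3, 6.46 and 7.08 CPM. HT55 itraconazole replicate 3 lay among the controls, and the change did not pass (log2 fold change 0.41 ± 0.19 SE, edgeR adjusted p = 0.0817). Without that library it was 0.53 (edgeR adjusted p = 0.0164), and without HT55 itraconazole replicate 2 it was 0.22 (edgeR adjusted p = 0.239).

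TUG1 was the member that passed in both lines, downwards. In HT55 the DMSO libraries had 173, 161, 157 and 175 CPM and the itraconazole libraries 148, 127, 129 and 144 CPM. The groups did not overlap, and the log2 fold change was -0.28 ± 0.07 (SE; 1.22-fold lower, edgeR adjusted p = 0.00651). In SW948 the DMSO libraries had 159, 177, 143 and 161 CPM and the itraconazole libraries 103, 78.4, 74.4 and 86.0 CPM. The gap was wider there (log2 fold change -0.93 ± 0.10 SE, 1.91-fold lower, edgeR adjusted p = 7.06e-07).

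OIP5-AS1 fell in SW948 and not detectably in HT55. The SW948 DMSO libraries had 41.3, 47.4, 38.4 and 43.3 CPM and the SW948 itraconazole libraries 34.6, 27.1, 26.7 and 34.6 CPM. Although the groups were close, none of the treated libraries reached the lowest control (log2 fold change -0.50 ± 0.10 SE, edgeR adjusted p = 0.000502). In HT55 the level was several times higher, at 199, 194, 183 and 203 CPM with DMSO and 210, 200, 176 and 198 CPM with itraconazole. The HT55 change, 0.0058 ± 0.0680 on the log2 scale (SE, edgeR adjusted p = 0.949), became -0.16 on plain library totals (edgeR adjusted p = 0.0352).

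**Figure D3:**
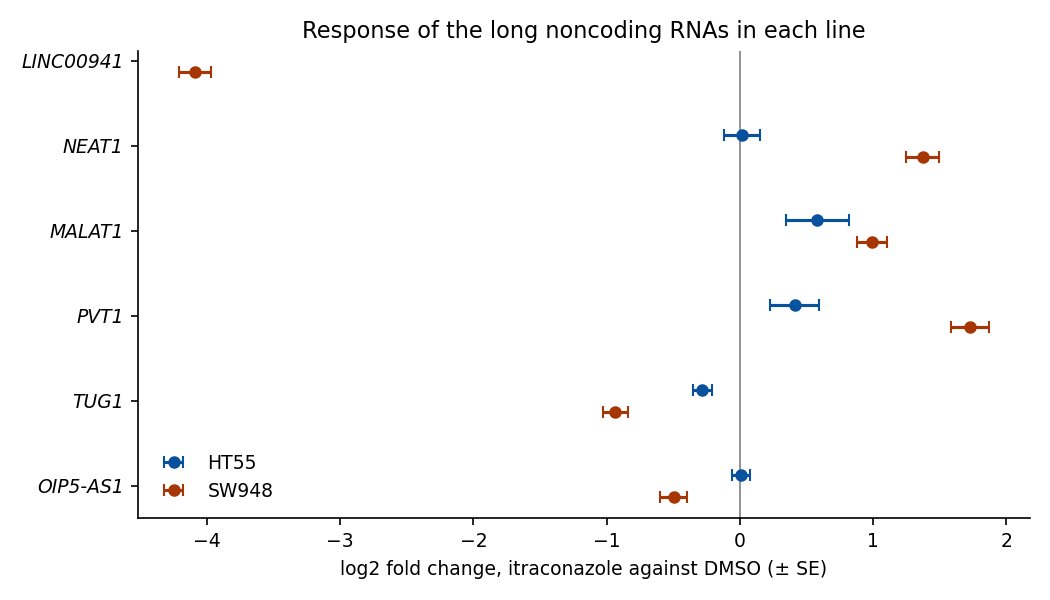
Log2 fold change of itraconazole against DMSO (x axis) for each lncRNA, HT55 in blue and SW948 in brown, with bars of ± SE from edgeR fits on 8 libraries per line. LINC00941 has no HT55 point because of its counts, and its SW948 value of -4.09 is a description. NEAT1 and OIP5-AS1 sit at 0 in HT55 and away from it in SW948.

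Whether the lines differed in their response was tested on all 16 libraries, as the SW948 response minus the HT55 response. Of 5 tested members, 4 passed, against 53.9% of 13249 tested genes. The difference in log2 fold change was 1.38 ± 0.20 (SE) for NEAT1 (edgeR adjusted p = 1.02e-05) and 1.35 ± 0.25 for PVT1 (edgeR adjusted p = 0.000137). It was -0.62 ± 0.13 for TUG1 (edgeR adjusted p = 0.000475) and -0.48 ± 0.13 for OIP5-AS1 (edgeR adjusted p = 0.00373). MALAT1, at 0.44 ± 0.28, was not shown to differ between lines (edgeR adjusted p = 0.191). Without HT55 itraconazole replicate 2, the highest of its group, the MALAT1 difference was 0.66 (edgeR adjusted p = 0.0272).

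The lines also differed before treatment. Among DMSO libraries, 3 of the 5 tested members passed between SW948 and HT55, against 75.9% of 13249 tested genes. NEAT1 was 5.52-fold higher in SW948 (log2 difference 2.46 ± 0.14 SE, edgeR adjusted p = 5.35e-12) and PVT1 2.12-fold higher (1.09 ± 0.18 SE, edgeR adjusted p = 1.59e-05). OIP5-AS1 was 4.57-fold lower in SW948 (log2 difference -2.19 ± 0.09 SE, edgeR adjusted p = 3.29e-14). The log2 differences of MALAT1, 0.21 ± 0.20 (SE, edgeR adjusted p = 0.351), and TUG1, -0.058 ± 0.090 (SE, edgeR adjusted p = 0.570), did not pass. For TUG1 the sign was positive on plain library totals. Without HT55 DMSO replicate 4, whose MALAT1 level was the highest of its group, the MALAT1 difference was 0.46 (edgeR adjusted p = 0.0306).

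The lncRNAs as a class leaned downwards with treatment. Of 418 lncRNAs tested in HT55, 40 were higher and 153 lower, with a median log2 fold change of -0.34, and of 450 tested in SW948, 118 were higher and 231 lower, with a median of -0.58. On plain totals the counts were 27 higher and 179 lower in HT55, and 87 higher and 264 lower in SW948. Over all genes the medians were -0.015 and -0.025. NEAT1, MALAT1 and PVT1 were among the lncRNAs that rose in SW948, ranking 57, 74 and 42 from the top of the class. TMM scaling raised the median log2 fold change over plain totals by 0.16 in HT55 and 0.33 in SW948. On plain totals 2279 genes were higher and 4710 lower in HT55, against 3340 and 3213 with TMM, and 3145 were higher and 6832 lower in SW948, against 4865 and 5165. The share of gene counts in lncRNAs was 0.902% and 0.870% in HT55 with DMSO and itraconazole, and 0.825% and 0.805% in SW948. The mitochondrial share went from 2.15% to 2.83% in HT55 and from 1.22% to 2.47% in SW948, and its part in these results was not tested.

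Other lncRNAs of the nucleus or of colorectal cancer moved in both directions. Of 40 matched, 22 were tested in HT55, of which 7 rose, 7 fell and 8 did not pass, and 27 were tested in SW948, of which 11 rose, 15 fell and 1 did not pass. Over all tested genes the shares were 27.5% higher and 26.5% lower in HT55 and 38.9% and 41.3% in SW948. The list's median log2 fold changes were -0.032 in HT55 and -0.42 in SW948. On plain totals HT55 had 5 that rose and 7 that fell, and SW948 9 and 15. All tested genes on plain totals had 2279 higher and 4710 lower in HT55, and 3145 higher and 6832 lower in SW948. UCA1, an RNA first described in bladder cancer, rose in HT55 from 192 ± 2.76 to 1850 ± 812 CPM (log2 fold change 3.26 ± 0.28 SE, edgeR adjusted p = 1.29e-05). H19, the imprinted RNA of the IGF2 locus, fell there from 875 ± 45.1 to 400 ± 96.8 CPM (log2 fold change -1.13 ± 0.14 SE, edgeR adjusted p = 0.000123), while its SW948 group means were at most 0.718 CPM. HOTTIP also fell in HT55 (log2 fold change -0.65), and MIR4435-2HG rose there by 0.82, with overlapping groups.

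UCA1 rose in SW948 too, from between 2.84 and 8.15 CPM in the DMSO libraries to between 11.3 and 31.9 CPM in the itraconazole libraries (edgeR adjusted p = 9.57e-05). Among list members whose mean log2 CPM reached 3, LINC-PINT and MIR4435-2HG had the highest log2 fold changes there and JPX and LINC00511 the lowest. LINC-PINT, a p53-regulated RNA, rose from 3.38 ± 0.34 to 19.7 ± 1.55 CPM (log2 fold change 2.51 ± 0.13 SE, edgeR adjusted p = 6.01e-10). MIR4435-2HG rose from 6.48 ± 1.03 to 36.6 ± 9.92 CPM (log2 fold change 2.45 ± 0.19 SE, edgeR adjusted p = 3.79e-08). JPX fell from 39.2 ± 1.09 to 8.43 ± 2.01 CPM (log2 fold change -2.23 ± 0.13 SE, edgeR adjusted p = 1.76e-09), and LINC00511 fell too (log2 fold change -1.65 ± 0.08 SE, edgeR adjusted p = 3.39e-10). TINCR, a lower gene named after its value was seen, went in SW948 from 0.169 ± 0.123 to 9.93 ± 1.49 CPM and is the topmost point of its list. The plot of companion lists shows these lncRNAs as the most widely spread of the lists in SW948.

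**Figure D4:**
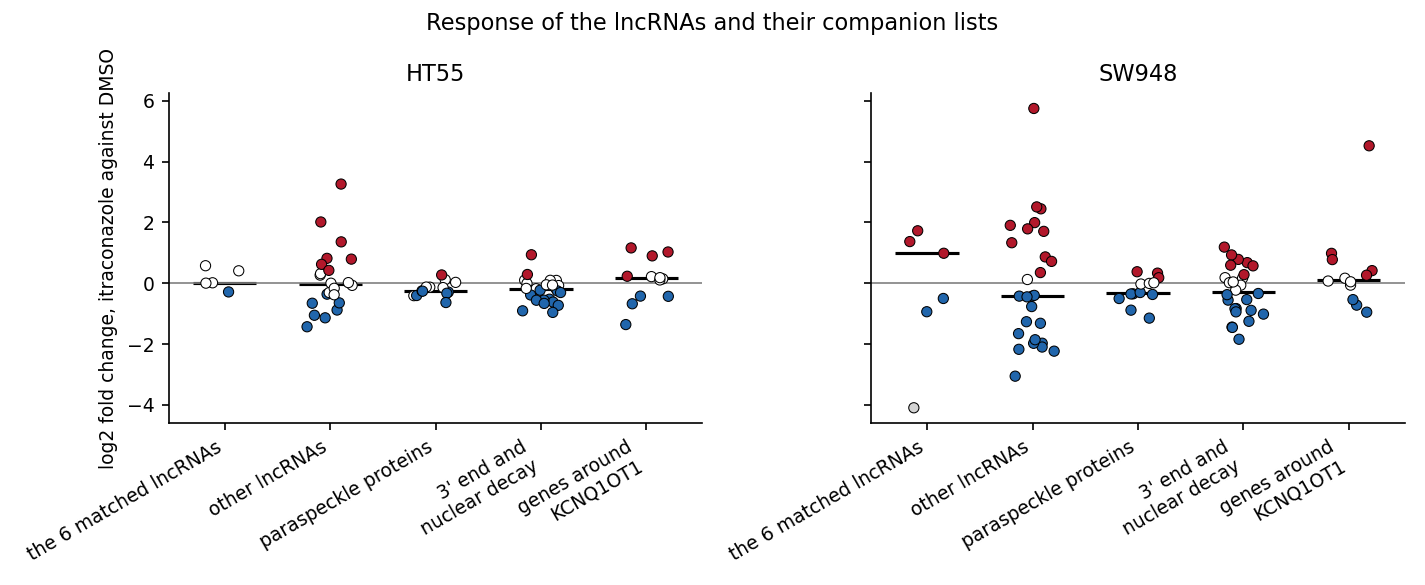
Log2 fold change of itraconazole against DMSO (y axis) for the matched lncRNAs and 4 companion lists in HT55 and SW948. Each point is a gene, red where it rose and blue where it fell past an adjusted p of 0.05, white where it did not pass and grey for LINC00941, which was not tested, and bars are medians of the tested genes. In SW948, 7 of 13 paraspeckle proteins and 13 of 26 genes of RNA 3′ end processing and decay fell, against 41.3% of all tested genes.

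Paraspeckle proteins, the partners of NEAT1, moved in both directions while NEAT1 itself rose in SW948. Of 13 tested in SW948, 7 fell, 3 rose and 3 did not pass, against 41.3% lower and 38.9% higher among all tested genes, and their median log2 fold change was -0.30. In HT55, 6 fell, 1 rose and 6 did not pass, against 26.5% lower and 27.5% higher among all tested genes, with a median of -0.25. NONO, an essential partner of the scaffold, fell in SW948 from 220 ± 8.54 to 177 ± 4.60 CPM (log2 fold change -0.35 ± 0.06 SE, edgeR adjusted p = 8.73e-05) and in HT55 by -0.29 ± 0.06 on the log2 scale (SE, edgeR adjusted p = 0.00322). SFPQ, the other such partner, fell in SW948 from 260 ± 6.36 to 144 ± 9.20 CPM (log2 fold change -0.88 ± 0.06 SE, edgeR adjusted p = 1.71e-08). In HT55 SFPQ had 271 ± 10.3 and 205 ± 75.5 CPM and did not pass (edgeR adjusted p = 0.118).

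TARDBP, which encodes the RNA-binding protein TDP-43, fell in both lines. Its log2 fold change was -0.63 ± 0.11 in HT55 (SE, edgeR adjusted p = 0.000904) and -1.14 ± 0.07 in SW948 (SE, edgeR adjusted p = 2.07e-09). The 3 that rose in SW948 were RBM14, by 0.38 on the log2 scale, DAZAP1, by 0.34, and CPSF6, by 0.18, and the 1 that rose in HT55 was SMARCA4, by 0.28. None of these rises held on plain library totals, where CPSF6 was lower in SW948 (-0.15). By the same edgeR test 11 fell and 0 rose in SW948 on plain totals, and 9 fell and 0 rose in HT55. Among all tested genes those totals gave 6832 of 12505 lower and 3145 higher in SW948. In HT55 they gave 4710 of 12133 lower and 2279 higher. CPSF6 was named after its value was seen, as were NONO and the HT55 value of SFPQ.

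Genes of RNA 3′ end processing and nuclear decay, which include the enzymes that trim the ends of MALAT1 and clear nuclear transcripts, also moved in both directions. In HT55, 12 of 26 fell, 2 rose and 12 did not pass (median log2 fold change -0.20), and in SW948, 13 fell, 7 rose and 6 did not pass (median -0.28). Among all tested genes 26.5% fell and 27.5% rose in HT55, and 41.3% fell and 38.9% rose in SW948, so the SW948 counts of this list lie near the background. On plain totals 16 fell and 1 rose in HT55, and 17 fell and 6 rose in SW948. Among all tested genes plain totals gave 4710 of 12133 lower and 2279 higher in HT55. In SW948 they gave 6832 of 12505 lower and 3145 higher. TENT4B, a noncanonical poly(A) polymerase, rose in HT55 from 34.6 ± 2.61 to 66.8 ± 15.0 CPM and in SW948 from 28.2 ± 1.03 to 65.7 ± 0.97 CPM. Its log2 fold changes were 0.94 ± 0.15 (SE, edgeR adjusted p = 0.000573) and 1.19 ± 0.07 (SE, edgeR adjusted p = 1.46e-09). Among exosome subunits, EXOSC8 fell by 0.96 on the log2 scale in HT55 (edgeR adjusted p = 2.06e-05) and EXOSC2 by 1.84 in SW948 (edgeR adjusted p = 1.14e-07), whereas EXOSC7 rose by 0.93 in SW948. POP5 in HT55 (log2 fold change -0.90) and RPP40 in SW948 (-1.45), which encode RNase P subunits, fell as well.

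KCNQ1OT1 itself had no matched identifier, but 12 genes of its imprinted domain were measured. In HT55 4 rose, 4 fell and 4 did not pass, and in SW948 5 rose, 3 fell and 4 did not pass, with median log2 fold changes of 0.17 and 0.12 and beside backgrounds of 27.5% higher and 26.5% lower in HT55 and 38.9% higher and 41.3% lower in SW948. On plain totals 3 rose and 4 fell in each line, and the medians were -0.0037 and -0.21. Over all tested genes the medians on plain totals were -0.18 in HT55 and -0.35 in SW948. There 2279 genes were higher and 4710 lower in HT55, and 3145 higher and 6832 lower in SW948. CDKN1C, the cell cycle inhibitor p57 and a gene that KCNQ1OT1 is known to silence in cis, rose in HT55 from 8.25 ± 0.78 to 18.6 ± 0.28 CPM (log2 fold change 1.16 ± 0.11 SE, edgeR adjusted p = 1.92e-05). In SW948 it rose from 2.32 ± 0.36 to 54.9 ± 17.1 CPM (log2 fold change 4.52 ± 0.24 SE, edgeR adjusted p = 1.08e-09). PHLDA2, another imprinted gene of the domain, rose by 1.03 on the log2 scale in HT55 and by 0.99 in SW948. NAP1L4 fell by 0.43 in HT55 and by 0.95 in SW948, and ASCL2, a transcription factor of intestinal stem cells, fell by 0.67 in HT55, with overlapping groups, and by 0.54 in SW948.

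Protein-coding genes within 100 kb of a matched member were taken as neighbours. Of 21 tested in each line, HT55 had 5 that rose and 4 that fell, and SW948 had 5 that rose and 9 that fell. The shares over all tested genes were 27.5% up and 26.5% down in HT55, and 38.9% up and 41.3% down in SW948. On plain library totals 3 rose and 8 fell in HT55, against 3 that rose and 15 that fell in SW948. Among all tested genes those totals gave 2279 of 12133 higher and 4710 lower in HT55. In SW948 they gave 3145 of 12505 higher and 6832 lower. CAPRIN2, whose gene spans LINC00941 on the other strand, had 26.0 ± 1.34 CPM in SW948 DMSO and 25.3 ± 2.75 CPM in SW948 itraconazole, where LINC00941 went from 32.1 to 1.90 CPM (CAPRIN2 log2 fold change -0.075 ± 0.094 SE, edgeR adjusted p = 0.473). MYC, beside PVT1, had 295 ± 7.02 and 335 ± 36.6 CPM in SW948 and did not pass (log2 fold change 0.15 ± 0.07 SE, edgeR adjusted p = 0.0768, -0.18 on plain library totals), and it had 295 ± 2.36 and 380 ± 92.6 CPM in HT55 (0.36 ± 0.15 SE, edgeR adjusted p = 0.0574).

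Neighbours on chromosome 11 and around TUG1 and OIP5-AS1 moved both with and against the lncRNA. FRMD8, 9.25 kb from NEAT1, fell in SW948 by 0.50 on the log2 scale (edgeR adjusted p = 0.000208). MORC2, which starts 0.471 kb from TUG1 on the other strand, fell in SW948 from 35.2 ± 3.80 to 13.2 ± 2.15 CPM (log2 fold change -1.44 ± 0.12 SE, edgeR adjusted p = 7.16e-08) and had 38.7 ± 1.69 and 41.2 ± 6.58 CPM in HT55 (log2 fold change 0.087, edgeR adjusted p = 0.528). OIP5, the antisense partner of OIP5-AS1, fell in SW948 from 4.79 ± 0.42 to 1.13 ± 0.37 CPM (log2 fold change -2.07 ± 0.22 SE, edgeR adjusted p = 8.94e-07) and in HT55 by 0.46. CHP1, 2.07 kb on the other side, rose in HT55 by 1.09 and in SW948 by 1.63 on the log2 scale.

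The genes whose log2 CPM followed each member most closely over the 16 libraries were found among about 9089 candidates, by Pearson's r, which here mostly follows the 4 groups that the points share. For NEAT1 they were TGFA, TRIM36 and CMTM7 (r of 0.99 each), and for PVT1 RHOA, RAC1 and GNB1 (r from 0.993 to 0.995). For MALAT1 the closest, MRPL33, PRKACA and DCAF5, reached r of 0.92. ASF1A, LYRM7 and RXYLT1 were closest to TUG1 (r of 0.98 each) and ATP6AP2, LGALS3BP and SLC7A8 to OIP5-AS1 (r from 0.994 to 0.998). LINC00941 was not ranked since it was too low for a test in HT55.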

How the data were processed

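RNA from 16 cultures was made into TruSeq libraries and sequenced as single-end reads of 50 bp, aligned to hg19. The submitters' processing notes name TopHat, HTSeq and DESeq, and the study describes the cultures as biological replicates. The authors deposited raw read counts per gene, 1 file per library, which list 54127 Ensembl identifiers and 5 totals of reads outside genes. These totals were left out. Reads with more than 1 alignment (group means of 22.8% to 26.6% of gene counts and the 5 totals together) are in no gene.

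Symbols came from GENCODE v44 lifted to GRCh37 and a gene name table and were found for 47098 identifiers. Members, companion lists and tests were chosen with earlier results of these data known. Each line was fitted on its 8 libraries with edgeR 4.0.16 (R 4.3.3), TMM scaling, filterByExpr and the quasi-likelihood test. The interaction and the DMSO difference used all 16. A gene was called at 0.05 after Benjamini-Hochberg adjustment. CPM in the text shares 1 TMM scaling over 16 libraries, and the SE is the log2 fold change divided by the square root of F. A member with fewer than 5 counts in every library of a line got no test there. From each list the 2 genes with the highest and the 2 with the lowest log2 fold change were named, among called genes whose mean log2 CPM reached 3. For each member the nearest protein-coding neighbours and the 3 most alike genes were named. A few genes that these rules name are not reported here. The fit was checked on simulated counts. Alternatives were DESeq2 1.42.0, its size factors, plain totals, no filter, a minimum of 10 counts per library, a threshold of 0.01, leaving out the 20 top and the mitochondrial genes, a replicate block, 1 fit on 16 libraries, and leaving out each library. Reads carried no molecular identifiers. No 2 libraries of a group were alike within counting noise.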

Additional observations from a re-analysis of the deposited data

Results flagged for a closer look

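The response to itraconazole differed between the lines for 4 of 5 tested lncRNAs, against 53.9% of all 13249 tested genes. The calls are from edgeR's interaction test with Benjamini-Hochberg adjustment. As the SW948 response minus the HT55 response in log2 fold change, the values were 1.38 for NEAT1, 1.35 for PVT1, -0.62 for TUG1 and -0.48 for OIP5-AS1. Of 22 sets of 4 libraries (a member in a group) examined for a library far from the others, 0 were past Dixon's limit for 4 values.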

How the results depend on the processing

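In HT55 the count of members called, 1 of 5, was 2 on plain library totals, with the DESeq2 Wald test, with no filter on low counts, with the replicate block and in 1 fit on all 16 libraries. It ran from 1 to 3 when each library was left out, with MALAT1 added without HT55 DMSO replicate 4 and MALAT1 and PVT1 added without HT55 itraconazole replicate 3. The added member was OIP5-AS1 on plain totals and MALAT1 in the other fits. The cause was not tested. In SW948 the count was 5 under all 17 alternatives, the interaction count of 4 was 4 or 5 under 24, and the DMSO count of 3 was 3 or 4 under 24.

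Changes near 0 turned sign. In HT55 the log2 fold change of NEAT1 was -0.15 on plain totals and ran from -0.049 to 0.14 when each library was left out. That of OIP5-AS1 was -0.16 on plain totals, -0.0049 with no filter, -0.0047 with at least 10 counts per library, and ran from -0.026 to 0.068 when each library was left out. The DMSO difference of TUG1 was 0.14 on plain totals. Same-numbered treated and control libraries deviated together with a correlation over 0.1 only for replicate 3 (range -0.045 to 0.144), and not every library correlated best with its own number, so the numbers were not taken as pairs. With the replicate block MALAT1 in HT55 passed at 0.57 on the log2 scale (edgeR adjusted p = 0.0225), and no other member changed its call. At this depth LINC00941 in HT55 allows no test of the treatment.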
